A study of Homo sapiens with 47 samples.

Results

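The keratin genes KRT81, KRT86, KRT80, KRT7, KRT8, KRT18, KRT19 and KRT10 were followed in single cells of the LM2 line, 8 of 25739 genes with an expression value. They are a list of named genes that was selected on their measured levels in these same cells, so the differences between groups given for them are a description and carry no test. All 8 members had a row and passed the minimum level set for a comparison, a mean of at least 8 normalized counts in CTCs or in culture, KRT86 only through its level in culture. By annotation, KRT81, KRT86, KRT80, KRT7 and KRT8 are type II keratins and KRT18, KRT19 and KRT10 are type I.

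LM2 (MDA-MB-231-LM2) is a metastatic subline of a human TNBC cell line. GFP-labeled LM2 cells were injected into the mammary fat pad of NSG mice aged 6 to 8 weeks, which lack mature lymphocytes. Circulating tumor cells (CTC) were enriched from terminal blood by size and stained for CD45 as a negative selection marker. GFP-tagged cells were then picked individually and sequenced with SMARTseq2, a full-length cDNA method with no molecular identifiers. Values were analyzed for 37 CTCs, of which 2 came from mouse 5541, 4 from mouse 5542, 10 from mouse 5545, 17 from mouse 5546 and 4 from mouse 5549, and for 6 LM2 cells grown in culture. The labels give both groups the same line and genotype and name no treatment, and whether the cultured cells carried GFP is not given in the sources used here. Per the paper, the 6 cultured cells were a positive control processed together with the CTCs, and the number of amplification cycles was chosen separately for each set of cells. Whether the 2 groups had the same number of cycles is not given in the sources used here. Both groups are 1 cell line. The mouse is the replicate of the CTCs and the 6 cultured cells are 1 culture, so a difference between circulating and cultured cells cannot be told apart from a feature of this culture.

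Keratins are the intermediate filament proteins of epithelial cells, and each filament is built from pairs of 1 type I and 1 type II chain. KRT8 and KRT18 are the pair of simple epithelia such as the luminal cells of the breast, KRT7 and KRT19 accompany them in ductal epithelium, KRT10 belongs to the suprabasal layers of the epidermis, and KRT81 and KRT86 build hair. Antibodies to several of these proteins are widely used to recognize carcinoma cells in blood, while MDA-MB-231 and its sublines are regarded as mesenchymal-like and rich in vimentin.

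Reads on genes ranged from 469614 to 2041333 per CTC and from 776949 to 1186197 per cultured cell, and genes detected from 2313 to 12299 and from 7369 to 13679. The lowest number of genes was that of CTC 5545-6. The libraries of mouse 5546 carry the letter c or s in their names, which no source used here explains, and the 9 c libraries had 7782 to 12299 genes while the 8 s libraries had 4656 to 7538. Of 8 mesenchymal genes listed for the LM2 line, 7 had a row. VIM, the gene of vimentin, AXL and CD44 were detected in all 37 CTCs and in all 6 cultured cells, SPARC in 35 CTCs and 6 cultured cells, ZEB1 in 33 and 6, FN1 in 32 and 5, and CDH11 in 8 and 2. Genes of blood cells were detected as well, with HBB, the gene of beta-globin, in 35 of 37 CTCs and in 0 of 6 cultured cells. The blood was that of mice and alignment was to the human genome, so mouse reads placed on human genes could not be told apart.

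Levels are normalized counts, which are the reads on a gene scaled by a size factor for its cell. A group level is the mean of the 5 mouse means ± SD for CTCs and the mean of 6 cells for culture, and log2 ratios were taken after 1 was added to both. On this scale most genes were lower in CTCs, with a median log2 ratio of -1.20 over the 9164 genes that passed the minimum level, and with 10% of genes below -2.51 and 10% above 0.35. A ratio near -1.20 is therefore the middle of the table. With RPM, which scales each cell by its total reads, in place of size factors, this median was -0.45, and each change below is read against the median of its own scale.

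Against that background the members went different ways. KRT81 and KRT86 were far lower in CTCs than in culture and KRT7 was lower. KRT18 stayed near the median gene, KRT8 and KRT10 stood above it, and KRT19 was higher in CTCs. The fixed rule of size asked that every one of the 5 mouse means differ from the culture mean at least 4-fold, in 1 direction. KRT81 and KRT86 met it as lower, 2 of 8 members against 5.31% of the 9164 genes, and 0 of 8 members met it as higher, against 0.0655%. With a 2-fold limit in each mouse, KRT7 joined them, which made 3 of 8 members lower against 25.1% of genes and 0 of 8 higher against 0.262%. For KRT81, KRT86 and KRT18, all 5 mouse means lay below all 6 cultured cells, which held for 9.12% of genes, and for 0 members all 5 lay above, which held for 0.284%. The median log2 ratio of the 8 members was -1.42. Since the members were selected on these values, nothing is read from these counts about keratins as a class.

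**Figure D1:**
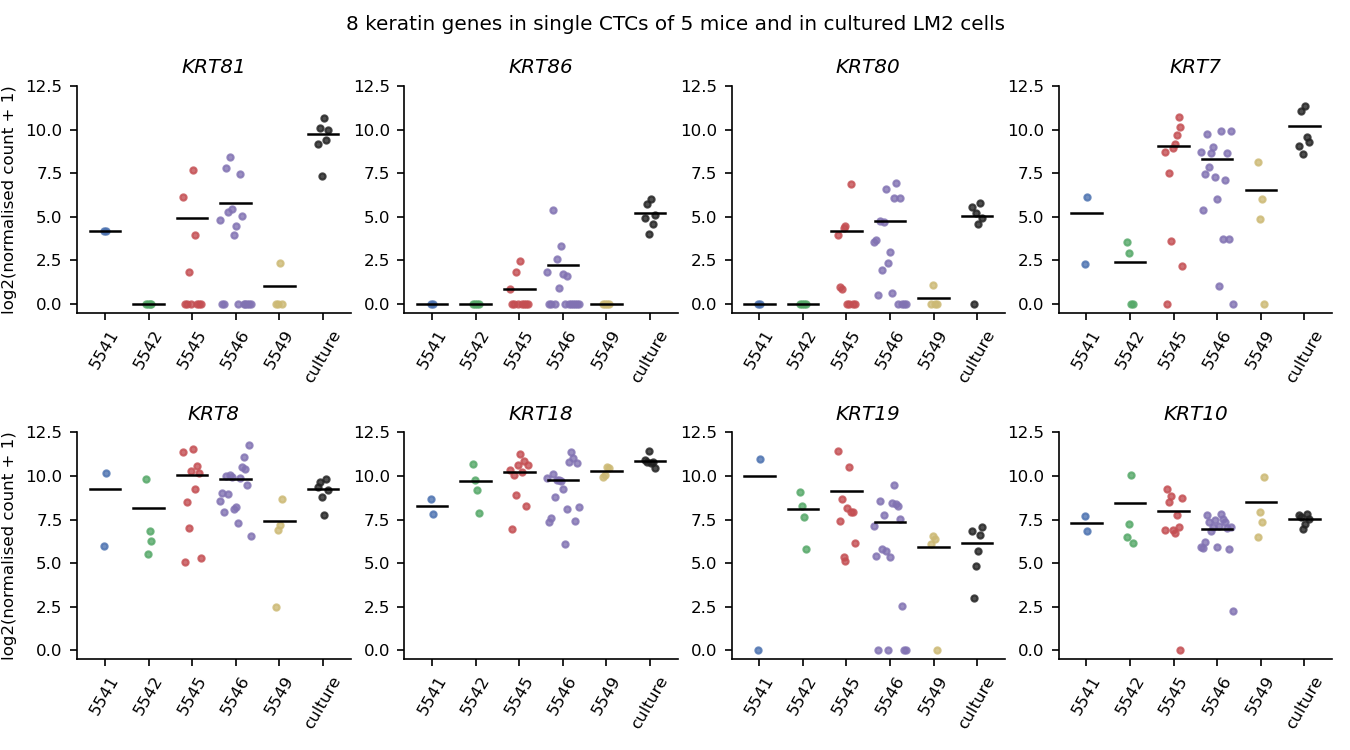
Log2(normalized count + 1) of each of the 8 keratin genes in every CTC, by mouse, and in every cultured cell; each point is 1 cell and each bar the log2(mean + 1) of its group. KRT81 and KRT86 are low or at 0 in most CTCs and above 0 in all 6 cultured cells, while KRT8 and KRT18 are above 0 in all 43 cells.

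KRT81 and KRT86 encode the type II chains of the hair cortex and lie side by side on chromosome 12 (GRCh38). KRT81 spans chr12:52285913-52291534 on the minus strand, inside the span of KRT86, chr12:52249300-52309163 on the plus strand, with no exon in common. Their coding sequences match at 94.5% of aligned bases, with 1 identical run of 605 bases from coding base 61 to 665 of KRT81, in exons 1 to 4. Of the 50-base words in the KRT86 coding sequence, 51.2% also occur in that of KRT81. Reads wholly inside a shared stretch have no unique place and only uniquely placed reads were counted, so both levels rest on the remaining parts of the genes. The comparison used GENCODE release 44 transcripts. Differences gather at the far end of the coding sequence, with 44 of 169 aligned bases in exon 9, against 0 of 209 in exon 2.

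KRT81 was far lower in CTCs than in culture. In cultured cells its normalized count was 163 at the lowest, 847 at the median and 1623 at the highest, with a mean of 860 ± 501 (SD over 6 cells). In CTCs the mouse means were 16.9 in mouse 5541, 0 in mouse 5542, 28.9 in mouse 5545, 53.4 in mouse 5546 and 1.04 in mouse 5549. The CTC level of 20.04 ± 22.1 (SD, n = 5 mice) was 40.9-fold lower, a log2 ratio of -5.35, and 33 of 37 CTCs lay below the lowest cultured cell. The highest CTC, 5546-c6, reached 343, within the range of the culture, followed by 5546-c4 at 218, 5545-18 at 202 and 5546-s2 at 172. KRT81 was detected in 16 of 37 CTCs (43.2%, exact binomial 95% interval 27.1 to 60.5%) and in 6 of 6 cultured cells. Such intervals cover counting error only, since neither the reads of 1 molecule nor the CTCs of 1 mouse are independent. In mouse 5542, 0 of 6390937 reads on genes were KRT81 reads, a count that allows up to 0.469 RPM, while the pooled culture had 624 RPM.

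KRT86 followed KRT81 at a far lower level per kb of exon, 14.9 against 446 in culture. Its normalized count in cultured cells was 15.1 at the lowest, 31.9 at the median and 64.3 at the highest, with a mean of 36.2 ± 18.5. The mouse means were 0 in mice 5541, 5542 and 5549, 0.771 in mouse 5545 and 3.67 in mouse 5546, for a CTC level of 0.888 ± 1.59 (n = 5 mice) and a log2 ratio of -4.30, and 36 of 37 CTCs lay below the lowest cultured cell. One CTC, 5546-c4 at 40.6, held 57.9% of the summed KRT86 counts of the 37 CTCs, and without that CTC the mean over CTCs fell from 1.90 to 0.819 and the CTC level from 0.888 to 0.427. KRT86 was detected in 10 of 37 CTCs, and KRT81 was detected in each of these 10. A further 6 CTCs had KRT81 reads and no KRT86 read, and 21 had neither. Pooled KRT86 reads were 5.44% of KRT81 reads in CTCs (126 and 2316 reads) and 4.18% in culture (144 and 3445 reads). Without CTC 5546-c4 the share in CTCs was 2.84% (55 KRT86 reads), below that of the culture, so no direction is given for it. In single cultured cells the share ran from 3.32 to 9.23%, while in CTCs with KRT81 reads it ran from 0 to 100%. The upper end was set by cells with few reads, such as 5545-12 with 6 reads of each gene and 5546-c8 with 18 and 11. KRT83, a further hair keratin of the same cluster that is 93.4% identical to KRT81 in its coding sequence, was detected in 5 of 37 CTCs and in 5 of 6 cultured cells and gave 0.432% of the KRT81 reads in CTCs and 0.435% in culture. The part that misassigned reads take in the KRT86 and KRT83 levels was not tested.

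The number of genes detected and the library letter moved with KRT81 and KRT86. Over the 37 CTCs, the Spearman rho with genes detected was 0.56 for KRT81, 0.53 for KRT86 and 0.51 for KRT80, and between -0.038 and 0.132 for the other 5 members. With reads on genes in place of genes detected it was 0.31 for KRT81, 0.30 for KRT86 and -0.03 for KRT80. Over the 17 CTCs of mouse 5546 the rho with genes detected was 0.57 for KRT81, 0.56 for KRT86 and 0.53 for KRT80. Within the 9 c libraries it was 0.26, 0.05 and 0.52 in the same order, and within the 8 s libraries 0.59, 0.25 and 0.85. These points share mouse, library preparation and depth. Within mouse 5546, KRT81 was detected in 7 of 9 c libraries with a mean of 78.2 and in 2 of 8 s libraries with a mean of 25.4, and KRT86 in 6 of 9 and in 1 of 8. Number of genes, letter and the levels of KRT81 and KRT86 moved together here, and the part of each was not tested. Without the s libraries the log2 ratio of KRT81 was -5.05 and without CTCs under 5000 genes it was -5.22. With each cell thinned to 469614 reads it was -4.65, and with RPM it was -4.64. On the RPM scale KRT81 and KRT86 again met the rule of size, 2 of 8 members lower against 1.56% of 8777 genes and 0 of 8 higher against 0.137%.

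KRT80, a type II keratin linked to the differentiation of stratified epithelia, was low everywhere and patchy in CTCs. Cultured cells ran from 0 to 53.4 with a median of 32.7. Mouse means were 0 in mice 5541 and 5542, 0.280 in mouse 5549, 17.2 in mouse 5545 and 25.6 in mouse 5546. The CTC level of 8.60 ± 12.0 (n = 5 mice) against 31.3 ± 18.8 in culture gave a log2 ratio of -1.75, and the groups overlapped, with 5 CTCs above the highest cultured cell and 0 below the lowest, which was at 0. On the RPM scale the mean of 1 mouse was above the culture mean. KRT80 was detected in 20 of 37 CTCs (54.1%, interval 36.9 to 70.5%), which included 9 of 9 c libraries and 4 of 8 s libraries of mouse 5546.

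KRT7, the type II keratin of ductal and glandular epithelium, was below the culture mean in the CTCs of each mouse, with wide gaps between mice. Its normalized count in culture was 386 at the lowest, 684 at the median and 2652 at the highest, with a mean of 1179 ± 964. The mouse means were 36.1 in mouse 5541, 4.27 in mouse 5542, 531 in mouse 5545, 314 in mouse 5546 and 92.6 in mouse 5549. The CTC level was 196 ± 223 (n = 5 mice), a log2 ratio of -2.59, and 8.99% of the 9164 genes had a lower ratio. In mouse 5545 alone the log2 ratio was -1.15, near the median of -1.20 over all genes. On the RPM scale the log2 ratio was -1.91, against a median of -0.45. In all, 24 of 37 CTCs lay below the lowest cultured cell, and the other 13 lay within the range of the culture, up to 1686 in CTC 5545-4. KRT7 was detected in 32 of 37 CTCs (86.5%, interval 71.2 to 95.5%), and in mouse 5542 all 4 CTCs were at 10.6 or less. In mouse 5546 its median was 226 in c and 75.9 in s libraries, while the means were 316 and 311. Exons of KRT7-AS overlap 282 bases and those of the pseudogene KRT87P 32 bases of KRT7, and their means were 0.843 and 0.0674 in CTCs and 0.426 and 1.96 in culture.

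**Figure D2:**
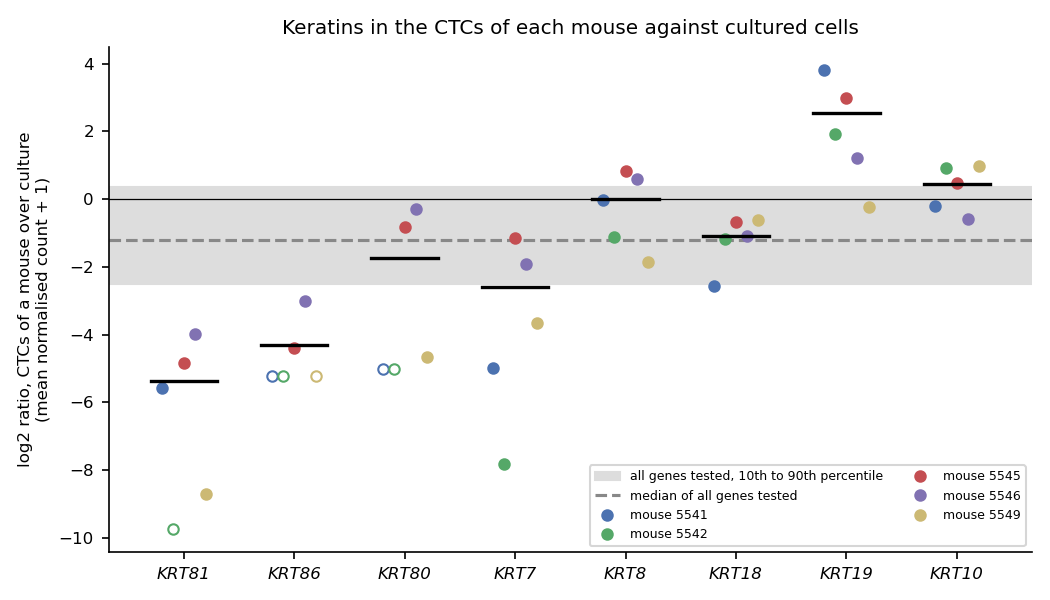
Log2 ratio of the mean normalized count + 1 of the CTCs of each mouse over that of the culture, for the 8 keratin genes. Points are mice, open where the mouse mean is 0 and the ratio is set by the added 1, bars are the ratio of the mean of mouse means, and the dashed line and gray band give the median of -1.20 and the 10th to 90th percentile over 9164 genes. Bars run from -5.35 for KRT81 to 2.53 for KRT19.

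KRT8 and KRT18, the filament pair of simple epithelia, were detected in 37 of 37 CTCs (interval 90.5 to 100%) and in 6 of 6 cultured cells. The genes are neighbors on chromosome 12, KRT8 at chr12:52897187-52949954 on the minus strand and KRT18 at chr12:52948871-52952906 on the plus strand, and 525 bases of their annotated exons overlap, so reads there could not be told apart without strand. Near copies of KRT8 had reads as well. The 30 KRT8 pseudogenes in the table together held 2.51% as many reads as KRT8 in CTCs and 2.69% as many in culture, and their summed level moved with KRT8 over CTCs (rho 0.898, n = 37). For KRT18, 39 pseudogenes held 0.892 and 0.294%. How many of these reads come from KRT8 and KRT18 was not tested.

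The mean of KRT8 was close in CTCs and culture on this scale, and its values spread more widely over CTCs. Cultured cells ran from 213 to 913 with a median of 631 and a mean of 608 ± 256. Mouse means were 602 in mouse 5541, 282 in mouse 5542, 1078 in mouse 5545, 918 in mouse 5546 and 169 in mouse 5549. The CTC level of 610 ± 392 (n = 5 mice) gave a log2 ratio of 0.0046, which is 1.21 above the median gene. Single CTCs ran from 4.69 in 5549-2 to 3463 in 5546-s8, and 12 of 37 lay below and 14 above the whole range of the culture. On the RPM scale the log2 ratio was 0.69, with 3 mouse means above and 2 below the culture mean, so no direction is given for KRT8.

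KRT18 was lower in CTCs by about as much as the median gene. Its normalized count in culture was 1406 at the lowest, 1782 at the median and 2724 at the highest, with a mean of 1894 ± 443. Mouse means were 317 in mouse 5541, 835 in mouse 5542, 1196 in mouse 5545, 889 in mouse 5546 and 1240.1 in mouse 5549, all below the lowest cultured cell. The CTC level was 895 ± 370 (n = 5 mice), a log2 ratio of -1.08 or 0.12 above the median gene, and 26 of 37 CTCs lay below the lowest cultured cell and 0 above the highest. On the RPM scale the log2 ratio was -0.41, and the mean of 1 mouse was above that of the culture.

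The balance of the pair shifted from cell to cell. The ratio of KRT8 to KRT18, each per kb of merged exon, was 0.0549 to 0.228 in cultured cells, with a median of 0.171, and 0.00212 to 2.23 in CTCs, with a median of 0.282. This ratio needs no scaling between cells. It lay above the whole range of the culture in 20 of 37 CTCs and below it in 5. Mouse averages of the ratio ran from 0.0558 to 1.15, with a mean of 0.485 ± 0.442 (n = 5 mice). CTC 5541-5, at 2.23, carried the highest mouse average, and without it the mean over mice was 0.269. Per kb of merged exon, the level of KRT8 exceeded that of KRT18 in 6 CTCs and in 0 cultured cells. This count depends on the length used. On normalized counts without length, KRT8 exceeded KRT18 in 13 CTCs, and the highest ratio in culture was 0.512.

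KRT19, the smallest keratin, a type I chain of ductal epithelium and a common target in assays for tumor cells in blood, was the member that was higher in CTCs. Its normalized count in culture was 6.90 at the lowest, 75.2 at the median and 132 at the highest, with a mean of 71.8 ± 50.3. The mouse means were 1023 in mouse 5541, 274 in mouse 5542, 574 in mouse 5545, 166 in mouse 5546 and 60.9 in mouse 5549. The CTC level was 420 ± 388 (n = 5 mice), a 5.78-fold higher mean or a log2 ratio of 2.53, and 98.0% of the 9164 genes had a lower ratio. Mouse 5549 was below the culture mean, so the rule of size was not met, while on the RPM scale all 5 mouse means were above it (log2 ratio 3.20). In all, 19 of 37 CTCs were above the highest cultured cell and 7 below the lowest, 6 of the latter at 0.

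KRT19 was uneven within mice. The 2 CTCs of mouse 5541 were at 0 and 2047, so that 1 CTC, 5541-5, carried the mean of that mouse. Without CTC 5541-5 the CTC level was 215 ± 226 and the log2 ratio 1.57. In mouse 5545 the 10 CTCs ran from 33.5 to 2745 with a median of 245, and in mouse 5546 the 17 CTCs ran from 0 to 711 with a median of 54.6. KRT19 was detected in 31 of 37 CTCs (83.8%, interval 68.0 to 93.8%). Without mouse 5541 the log2 ratio was 1.89.

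KRT10, a type I keratin of differentiating epidermis that many cell types transcribe at some level, was present in nearly all cells. Cultured cells ran from 122 to 229 with a median of 193 and a mean of 185 ± 41.3. Mouse means were 160 in mouse 5541, 349 in mouse 5542, 256 in mouse 5545, 124 in mouse 5546 and 366 in mouse 5549. The CTC level of 251 ± 109 (n = 5 mice) gave a log2 ratio of 0.44. Single CTCs ran from 0 in 5545-6, the CTC with the fewest genes, to 1085 in 5542-4, and the median CTC, at 133, was below the median cultured cell. With the median over the cells of each group the log2 ratio was -0.29, against a median of -1.81 over all genes in that setting. With RPM it was 1.08, against -0.45, with all 5 mouse means above the culture. KRT10 thus stood 1.52 and 1.53 above the median gene in these settings. Its sign against the culture depended on the setting, so no direction is given for KRT10. Its antisense gene KRT10-AS1 overlaps 61 bases of its exons and was at 8.99 ± 5.28 in CTCs and 53.1 in culture. Reads in the overlap could not be told apart without strand.

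To order the members, levels were taken per kb of merged exons. In CTCs the order of normalized counts per kb was KRT18 at 292 ± 121, KRT19 at 180 ± 166, KRT10 at 116 ± 50.3, KRT8 at 88.6 ± 57.0, KRT7 at 48.9 ± 55.8, KRT81 at 10.4 ± 11.5, KRT80 at 1.97 ± 2.76 and KRT86 at 0.366 ± 0.656 (SD, n = 5 mice). In this order the SDs of all neighbors overlapped. In culture the order was KRT18 at 617 ± 144, KRT81 at 446 ± 260, KRT7 at 295 ± 241, KRT8 at 88.3 ± 37.2, KRT10 at 85.3 ± 19.1, KRT19 at 30.7 ± 21.5, KRT86 at 14.9 ± 7.63 and KRT80 at 7.17 ± 4.32 (SD over 6 cells). There, KRT10 and KRT19 were the 1 pair of neighbors whose SDs did not overlap. KRT18 led in both groups, KRT81 moved from place 2 in culture to place 6 in CTCs, and KRT19 from place 6 to place 2. These places depended on the average and on the length used. With the median over all 37 CTCs, KRT19 took place 4 and KRT81 place 7, and without CTC 5541-5 KRT19 took place 3. With the longest transcript, KRT8 took place 3 in CTCs and KRT7 place 2 in culture.

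The make-up of the keratin transcripts of single cells changed accordingly. The hair keratins KRT81 and KRT86 made up 7.47 to 39.1% of the summed level per kb of the 8 genes in cultured cells, and 0 to 20.8% in CTCs with a median of 0. In 34 of 37 CTCs the share was below the lowest cultured cell. KRT19 made up 0.154 to 4.08% in cultured cells and a mean of 17.9 ± 12.0% (n = 5 mice) and a median of 7.54% in CTCs, and 26 of 37 CTCs were above the highest cultured cell. Without CTC 5541-5, at 73.2%, that mean was 10.6%. KRT18 was the leading keratin per kb in 26 CTCs, KRT19 in 5, KRT10 in 3, KRT8 in 2 and KRT7 in 1, whereas in culture KRT18 led in 4 cells and KRT81 in 2. The summed level of type II keratins over that of type I keratins was 0.271 to 2.38 in cultured cells with a median of 1.13, and 0.0087 to 2.16 in CTCs with a median of 0.291, and 18 CTCs were below all cultured cells. With the longest transcript as length these medians were 1.23 and 0.439, with 16 CTCs below. These shares describe RNA and not protein chains. All 8 keratins together took 0.0542 to 0.880% of the reads of a CTC and 0.231 to 0.502% of those of a cultured cell.

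**Figure D3:**
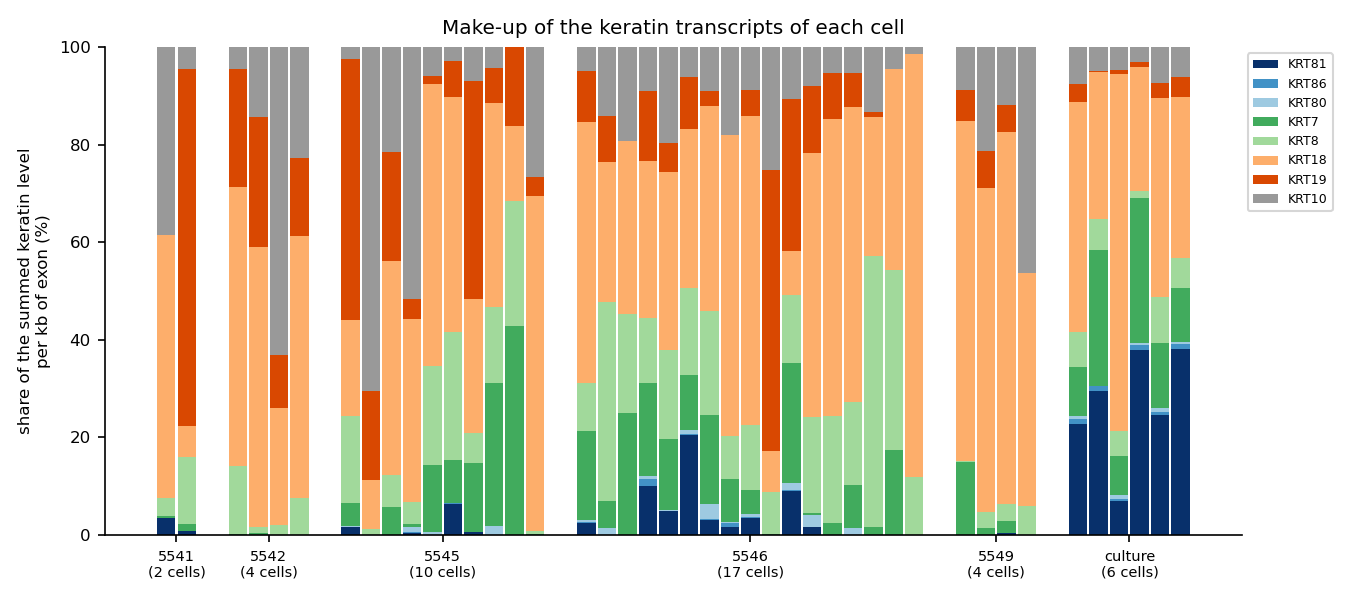
Share of each of the 8 keratin genes in the summed keratin level per kb of merged exon, in percent, with 1 bar per cell, grouped by mouse and culture. The segments of KRT81 and KRT86 together are 7.47% or more in each cultured cell and at a median of 0 in CTCs. The KRT19 segment runs from 0 to 73.2% in CTCs with a median of 7.54%, and is at most 4.08% in culture.

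Over the 37 CTCs, the 28 pairs of members had a Spearman rho from -0.223 to 0.754 with a median of 0.234, and 25 of 28 were positive. These cells share mice, depth and, for KRT81, KRT86 and KRT80, the link to genes detected, so no p is given. KRT81 and KRT86 were the pair with the highest rho (0.754), in mouse 5545 0.815 over 10 CTCs and in mouse 5546 0.717 over 17. KRT7 and KRT8 came next with 0.678, in mouse 5545 0.709 and in mouse 5546 0.468. The filament partners KRT8 and KRT18 had a rho of 0.499, in mouse 5545 0.685 and in mouse 5546 0.733, and thinning all cells to 1 depth gave 0.315. KRT8 and KRT10 had the lowest rho, -0.223, but with opposite signs in the 2 mice with most cells, -0.830 in mouse 5545 and 0.377 in mouse 5546. Without mouse 5545 it was 0.048.

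**Figure D4:**
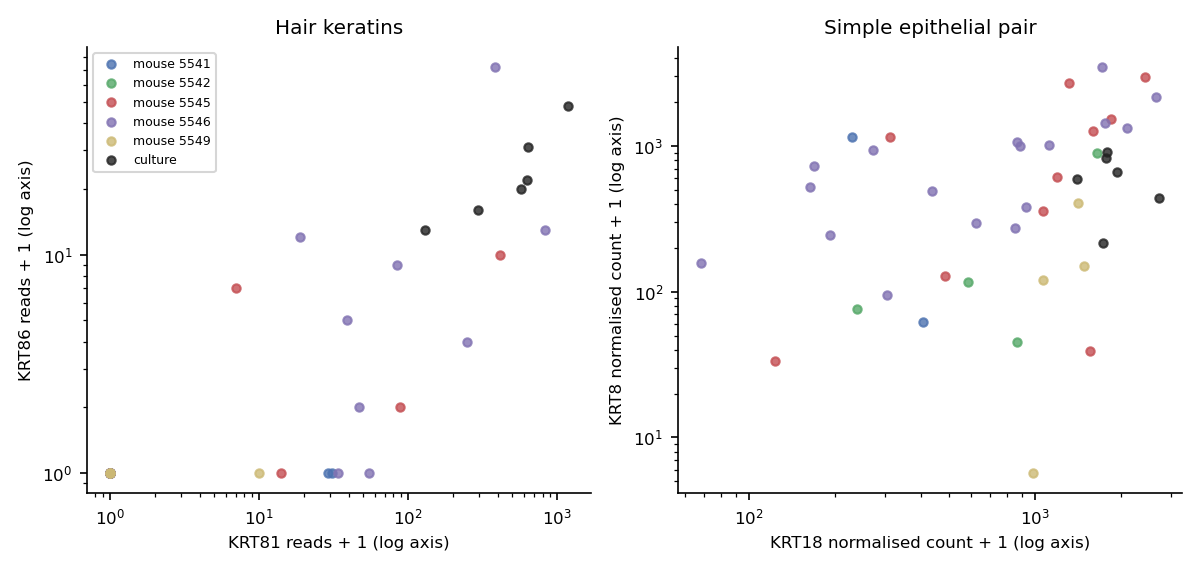
Left, KRT86 reads + 1 against KRT81 reads + 1 in each cell; right, KRT8 against KRT18 normalized counts + 1; all axes are logarithmic, and points are cells colored by mouse, with culture in black. KRT86 is at 0 reads wherever KRT81 is at 0 reads, and the 6 cultured cells lie between 1406 and 2724 for KRT18 and between 213 and 913 for KRT8.

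Among genes detected in at least 19 of the 37 CTCs, those whose pattern over CTCs was most like that of KRT81 were TRAM2, a membrane protein of the endoplasmic reticulum (rho 0.662), SVBP, a partner of the vasohibins (0.661), and NT5C3B, a nucleotidase (0.656), of 7014 genes compared. TRAM2 itself moved with genes detected (rho 0.671). For KRT8 they were its pseudogenes KRT8P3 (0.912), KRT8P45 (0.894) and KRT8P36 (0.876). For KRT7 they were KRT8P33 (0.723), KRT8P3 (0.706) and KRT8P48 (0.697), likewise copies of KRT8. For KRT18 they were the mRNA-binding protein SERBP1 (0.651), the splicing factor RNPS1 (0.647) and the COP9 signalosome subunit COPS6 (0.599).

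The other keratins were detected in few cells. Of 55 keratin genes looked up, 23 had a row, and of the 15 that are not members, 13 were detected in fewer than 5 of the 43 cells. Of these 13, KRT34, a type I keratin, was detected in 3 CTCs and 0 cultured cells and reached 353.6 in CTC 5546-c10. That CTC had 0 KRT81 reads. KRT32, also type I, was detected in 0 CTCs and in 1 cultured cell, at 9.95. KRT15, a type I keratin of basal cells, was detected in 14 CTCs and 4 cultured cells, with 17.6 ± 24.5 in CTCs (n = 5 mice), 4.34 in culture and a highest value of 200.2 in CTC 5542-4, the CTC with the most KRT10. KRT83, described above, was detected in 10 cells. Along the keratin cluster of chromosome 12, KRT7, KRT86 and KRT81 lie near KRT80, and KRT8 and KRT18 lie 743 and 770.4 kb from it by gene midpoints. Epidermal markers, which would mark skin cells or dust, were low. Of 14 listed genes 4 had a row, their summed level had a median of 0 and a highest value of 92.4 over CTCs and ran from 0 to 66.2 over cultured cells, led by DMKN, SBSN and FLG at 4.43, 1.65 and 0.981 in CTCs. DMKN reached 75.02 in 1 CTC and had a mean of 22.5 in culture, where it was detected in 4 of 6 cells, and KRT14, which defines basal epidermis, was detected in 1 CTC and in 0 cultured cells.

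**Figure D5:**
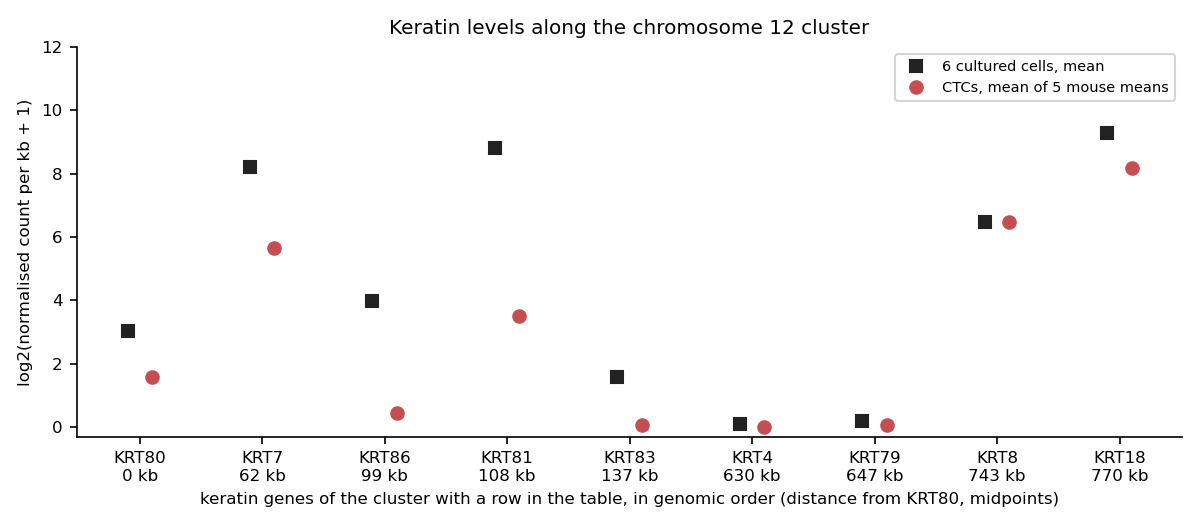
Log2(normalized count per kb of merged exon + 1) of the keratin genes of chromosome 12 that have a row, in genomic order with the distance of gene midpoints from KRT80 in kb; squares are means of 6 cultured cells and circles the mean of 5 mouse means. KRT81 stands at 446 per kb in culture and 10.4 in CTCs, and KRT8 at 88.3 and 88.6.

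Genes that work with keratins were read against the 5.31% of all genes that met the rule as lower. Of 20 filament linkers and partners, 16 passed the minimum level, and 1 met the rule as lower and 0 as higher, a share near that of all genes, with a median log2 ratio of -0.51 against -1.20 for all genes. The 1 gene was PKP4, a plakophilin-related protein of cell junctions, at 7.11 ± 4.30 in CTCs and 53.1 in culture, which passed the minimum only through culture. Of 13 transcription factors of epithelial identity, 4 passed the minimum level, with a median log2 ratio of -0.44, and 0 met the rule as higher. TFAP2C, an AP-2 factor active in breast epithelium, met the rule as lower, at 1.04 ± 1.23 against 71.2, and it too passed the minimum only through culture. The others were KLF4 at 45.6 ± 56.7 against 16.1, KLF5 at 91.9 ± 90.8 against 72.3 and GATA3 at 3.58 ± 3.72 against 9.76. Of 13 other intermediate filament genes, 5 passed and 0 met the rule, with VIM at 8972 ± 2379 in CTCs and 5549 in culture, LMNA, a nuclear lamina gene, at 1069 ± 485 and 1769, and LMNB2, a further lamina gene, at 23.6 ± 15.4 and 160. Of 8 mesenchymal genes, 6 passed and 0 met the rule, with AXL, a receptor tyrosine kinase, at 1915 ± 640 and 4439, and FN1, the gene of fibronectin, at 547 ± 414 and 144.

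Blood-cell genes were measured beside the keratins. Of 8 erythroid genes, 4 passed the minimum level, all only through CTCs, since they were at 0 in all 6 cultured cells. HBB and HBD met the rule as higher, with 1482 ± 1409 and 385 ± 367 in CTCs. The rule took 0.0655% of all genes as higher, but genes that passed only through CTCs give no fair comparison with that share. The summed erythroid level ran from 0 to 15571 in CTCs, and its rho with the 8 members ran from -0.344 for KRT19 to 0.049 for KRT86. Of 5 neutrophil genes 1 passed, S100A9, only through CTCs, at 68.4 ± 78.4 against 0, and the rho of that list with KRT19 was -0.370. CXCR2 at 1.12 and CSF3R at 0.965 were the next highest. Of 8 leukocyte genes 3 passed and 0 met the rule, with LAPTM5 at 118 in CTCs and 277 in culture, CORO1A at 24.7 and 0.198, and TYROBP at 9.88 and 0. CORO1A and TYROBP passed only through CTCs. PTPRC, the gene of CD45, was detected in 11 of 37 CTCs and 0 cultured cells. Of 5 platelet genes 0 passed, and GP9, ITGA2B and PF4 were at 4.23, 0.288 and 0.256. The part of blood-cell RNA in the keratin levels was not tested, nor was the part of mouse reads in any of these values.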

How the data were processed

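The deposited values are a signal: per the paper's methods, the authors used STAR 2.7.10a on GRCh38 (GENCODE release 38), kept unique matches, counted without strand, and scaled counts by DESeq2 size factors (version 1.42.1 in the submitters' processing notes). Alignment was to the human genome, and 4 CTCs were left out by the authors. All nonzero values (100%, tolerance 0.001) were whole multiples of the smallest value of their cell, which gave recovered reads. Symbols, positions and lengths came from GENCODE release 44, which matched 25565 identifiers and left 174 unmatched. The members and lists were chosen with earlier results of these data known. Named genes are the members, other keratins detected in at least 5 cells, the 3 genes most like KRT81, KRT7, KRT8 and KRT18, list genes past the rule of size or else the 3 highest, and genes overlapping a member. Further mesenchymal genes, PTPRC, KRT14, KRT32, KRT34, KLF4, KLF5 and GATA3 were named after their values were seen. Stretches of the coding sequences are not reported here.

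Levels, ratios, rho and intervals were computed with SciPy 1.17.1, numpy 2.4.6 and pandas 2.3.3 in Python 3.11.15, and alignments with Biopython 1.88. An edgeR 4.0.16 quasi-likelihood test and DESeq2 1.42.0 were run on the summed reads of each mouse and of the culture, in R 4.3.3, as alternatives that assume the culture varies as mice do, giving counts of calls after Benjamini-Hochberg adjustment at 0.05. Steps were tested on simulated data. Thinning drew 469614 reads per cell.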

Additional observations from a re-analysis of the deposited data

Results flagged for a closer look

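Of 44 groups of 4 to 10 values of the members and their sums that were checked, 9 held a value that stood apart by Dixon's criterion. The criterion flags about 1 in 20 groups of normally distributed values. That rate need not hold for skewed counts with many zeros, so no excess is read from the 9. In mouse 5545, KRT81 reached 202 in CTC 5545-18 against 69.7 in the next CTC, and KRT80 reached 115 in CTC 5545-4, the CTC with the fewest reads, against 21.4 in the next. In mouse 5542, KRT8 was 896 in CTC 5542-1 against 115 in the next, and KRT10 was 1085 in CTC 5542-4 against 151. Among the 5 mouse means of KRT86, that of mouse 5546, at 3.67, stood apart from the next at 0.771. In mouse 5549, 1 of 4 CTCs had KRT81 (4.18 in 5549-5) and 1 had KRT80 (1.12 in 5549-3), with the others at 0. The criterion always flags such a group. The level of type II over type I keratins per kb was 2.16 in CTC 5545-6, which had the fewest genes and no KRT10 reads, against 0.874 in the next CTC of that mouse, and 0.179 in CTC 5549-2 against 0.067. No explanation was tested for any of these.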

How the results depend on the processing

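KRT81 and KRT86 met the rule of size as lower, and 0 members as higher, under all 21 other averages, pseudocounts, scalings, exclusions and limits tried, with KRT80 added by medians over cells and KRT7 by a 2-fold limit. For KRT81 and KRT86, several of these settings could not undo the call, so they give no check of it. They were a smaller pseudocount, a 2-fold limit, no minimum level, the mean over all CTCs and each exclusion of 1 mouse. The tests on summed reads called 0 of 8 members in edgeR (all genes: 0 lower and 0 higher of 13813, with 101 lower and 140 higher at an unadjusted p under 0.05) and 0 of 8 in DESeq2 (2 lower and 18 higher, with 34 and 283 unadjusted). Their 1 culture has no replicate.

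Over all genes, the rule took 487 as lower and 6 as higher. The count of lower genes was 219 with a pseudocount of 5, 1357 with medians over cells, 137 with RPM, 132 after thinning and 2298 with a 2-fold limit, and that of higher genes 17 with a pseudocount of 0.1, 2 with medians, 12 with RPM, 10 after thinning and 24 with a 2-fold limit. Leaving out 1 mouse or cultured cell gave 397 to 757 lower and 5 to 13 higher genes, with 757 lower without mouse 5545 and 13 higher without mouse 5541.

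KRT10 went from 0.44 to -0.29 (log2) with medians over cells, while the median over all genes went from -1.20 to -1.81, so KRT10 stayed above the median gene. With 1 mouse left out, the rho of KRT8 and KRT10 ran from -0.352 without mouse 5546 to 0.048 without mouse 5545. After thinning it was -0.386. Of the 8 places per kb, 5 stayed in CTCs and 6 in culture with the longest transcript, 6 with the mean over all CTCs and 3 with their median. No paired analysis was possible because the culture and the mice share no replicate numbers. Depth limits KRT86 and KRT80 most, with 126 and 762 reads over 37 CTCs. Leaving out each CTC in turn, chosen after seeing the data, moved the KRT19 level, its share and the KRT8 to KRT18 ratio by over 1.5 times without CTC 5541-5, and the KRT86 level and the KRT86 to KRT81 read share without CTC 5546-c4.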
